A study of Mus musculus with 15 samples.

Results

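The levels of 10 imprinted genes with roles in growth and fat were followed across sorted mouse adipocytes, namely Peg3, Mest, Nnat, Igf2, Dlk1, Plagl1, Sgce, H19, Meg3 and Zim1. They were taken by name from the array table, where each has 1 probe set, so that 10 of 25206 probe sets were described. The genes were chosen by name with their levels in these groups already known, so their levels and differences are given as a description and carry no test. RNA from fat cells of mice aged 8 to 10 weeks had been sorted by flow cytometry on a UCP1 reporter and run on 15 arrays. The BAT group held 3 arrays of UCP1-positive cells from brown fat of untreated mice. The CL group held 3 arrays of UCP1-positive inguinal cells after CL316243, an agonist of the beta-3 adrenergic receptor. The RS group held 2 arrays of the same gate and depot after roscovitine, an inhibitor of cyclin-dependent kinases. The RG group held 3 arrays of that gate and depot after rosiglitazone, an agonist of the nuclear receptor PPARG. The WAT group held 4 arrays of UCP1-negative inguinal cells from untreated mice. All mice carried the UCP1/Tomato reporter, while the sorting label reads UCP1(GFP). Doses and durations are not given in the sources used here. The series holds no group of UCP1-positive inguinal cells without drug, so each drug-treated group differs from WAT in both gate and drug. The labels do not say whether arrays of a group came from separate mice, so any p-value here measures the spread between these arrays.

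Genomic imprinting silences the copy of a gene that came from 1 parent through DNA methylation laid down in the germ line. Many imprinted genes act on fetal growth, and in general those read from the paternal copy promote growth and those read from the maternal copy restrain it. In fat, Dlk1 marks preadipocytes and holds back their differentiation, Mest is linked to the expansion of fat cells, and Plagl1, Igf2, H19, Dlk1, Meg3, Peg3 and Mest have been described in mouse as a network that is switched down together after birth. Peg3, Mest, Nnat, Igf2, Dlk1, Plagl1 and Sgce are read from the paternal copy, and H19, Meg3 and Zim1 from the maternal copy.

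Promoter windows of 300 bases, 250 before and 50 after each annotated start, were found in the RefSeq table (GRCm38.p6) for 8 of the 10 genes, in 14 windows. The windows of the 4 genes whose levels differed most between groups are shown, since these are the stretches where their transcription starts. Capitals mark matches, on either strand, to GGGGCCCC, the site bound by the PLAGL1 protein, to GCCATNTT, the core site of YY1, and to TGACGTCA, the full site of the cAMP-responsive factor CREB. The shorter CREB site TGACG and the PPAR direct repeat AGGTCANAGGTCA were searched too, on both strands. The shorter site is contained in the full site on each strand and is not capitalised on its own. No 2 capitalised matches overlapped. The Peg3 window lies at chr7:6730370-6730669 on the minus strand, the Nnat window at chr2:157559828-157560127, the Plagl1 window at chr10:13090582-13090881 and the Mest window at chr6:30737800-30738099, all 3 on the plus strand. Mest has 3 windows, of which the second is shown.
Peg3: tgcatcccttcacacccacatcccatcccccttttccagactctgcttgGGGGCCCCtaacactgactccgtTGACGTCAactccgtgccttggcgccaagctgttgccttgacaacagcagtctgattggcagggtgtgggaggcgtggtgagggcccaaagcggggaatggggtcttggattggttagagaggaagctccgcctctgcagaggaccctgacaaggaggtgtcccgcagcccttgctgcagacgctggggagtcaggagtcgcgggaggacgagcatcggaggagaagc
Nnat: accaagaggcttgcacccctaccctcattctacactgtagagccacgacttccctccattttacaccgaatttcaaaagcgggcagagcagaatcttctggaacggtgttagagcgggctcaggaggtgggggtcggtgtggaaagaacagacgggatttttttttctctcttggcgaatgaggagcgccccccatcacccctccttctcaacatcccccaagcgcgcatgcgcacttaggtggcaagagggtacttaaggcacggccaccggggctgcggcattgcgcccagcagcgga
Plagl1: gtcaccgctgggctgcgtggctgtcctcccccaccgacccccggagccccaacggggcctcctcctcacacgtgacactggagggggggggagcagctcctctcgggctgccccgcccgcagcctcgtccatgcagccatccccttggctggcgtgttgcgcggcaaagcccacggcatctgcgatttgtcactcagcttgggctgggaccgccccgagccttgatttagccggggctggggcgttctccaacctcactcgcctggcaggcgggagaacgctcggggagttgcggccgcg
Mest: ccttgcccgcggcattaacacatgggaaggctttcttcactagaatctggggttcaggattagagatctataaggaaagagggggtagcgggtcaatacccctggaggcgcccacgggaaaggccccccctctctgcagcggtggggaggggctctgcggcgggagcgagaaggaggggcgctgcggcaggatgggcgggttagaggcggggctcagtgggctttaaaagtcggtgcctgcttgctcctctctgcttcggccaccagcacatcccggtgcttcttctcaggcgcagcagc
The Peg3 window held 1 GGGGCCCC and 1 TGACGTCA, and the other 3 printed windows held none of the 5 motifs. The 2 TGACG matches of the Peg3 window both lie within its TGACGTCA. GGGGCCCC was found in 1.08% of all 32851 promoter windows of that length, GCCATNTT in 6.05%, TGACGTCA in 1.79%, TGACG in 20.8% and AGGTCANAGGTCA in 0.0396%. Among the 14 windows, TGACGTCA was also present in 1 window of Meg3, TGACG alone in 2 windows of Igf2 and 1 of Dlk1, and AGGTCANAGGTCA in none. CpG dinucleotides numbered 13 in the Peg3 window, 17 in that of Nnat, 26 in that of Plagl1 and 17 in that of Mest, against a median of 7 over all windows. These matches describe letters in a window and say nothing on binding.

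The deposited values were log2 signals, with array medians of 3.33 to 3.47. As a gauge of weak signal, each array's 95th percentile over 1354 olfactory and vomeronasal receptor probe sets was used, which ran from 3.01 to 3.70. The median receptor signal itself was 2.24 to 2.32 on BAT arrays, 2.08 to 2.18 on CL, 2.04 to 2.15 on RS, 1.84 to 1.95 on RG and 1.46 to 1.65 on WAT arrays, so weak probe sets read higher outside WAT. The median log2 difference of all probe sets was 0.18 for BAT minus WAT, 0.13 for CL, 0.14 for RS and 0.10 for RG. Of 17 macrophage markers measured, 17 were lower than in WAT in each of BAT, CL and RS and 16 in RG (limma, adjusted p under 0.05), and of 20 stromal and preadipocyte markers 18 were lower in BAT, 11 in CL, 16 in RS and 7 in RG, where 1 (Zfp423) was higher. Array WAT 4 had an Adipoq level of 7.85 where the other WAT arrays had 9.84 to 10.47, and array RS 3 had a Ucp1 level of 6.05 where RS 4 had 8.43. Levels below are deposited log2 values and differences are log2 differences of group means with the standard error (SE) of a limma fit in which the 5 groups shared 1 estimate of the spread. Arrays did not overlap between the 2 groups for 47.1% of all probe sets in BAT against WAT, 37.7% in CL, 46% in RS and 30.7% in RG. Among the UCP1-positive groups that share ran from 20.4% for CL against BAT to 34.7% for RG against BAT. In sorted bulk RNA, fewer cells of a type and less RNA per cell cannot be told apart.

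**Figure D1:**
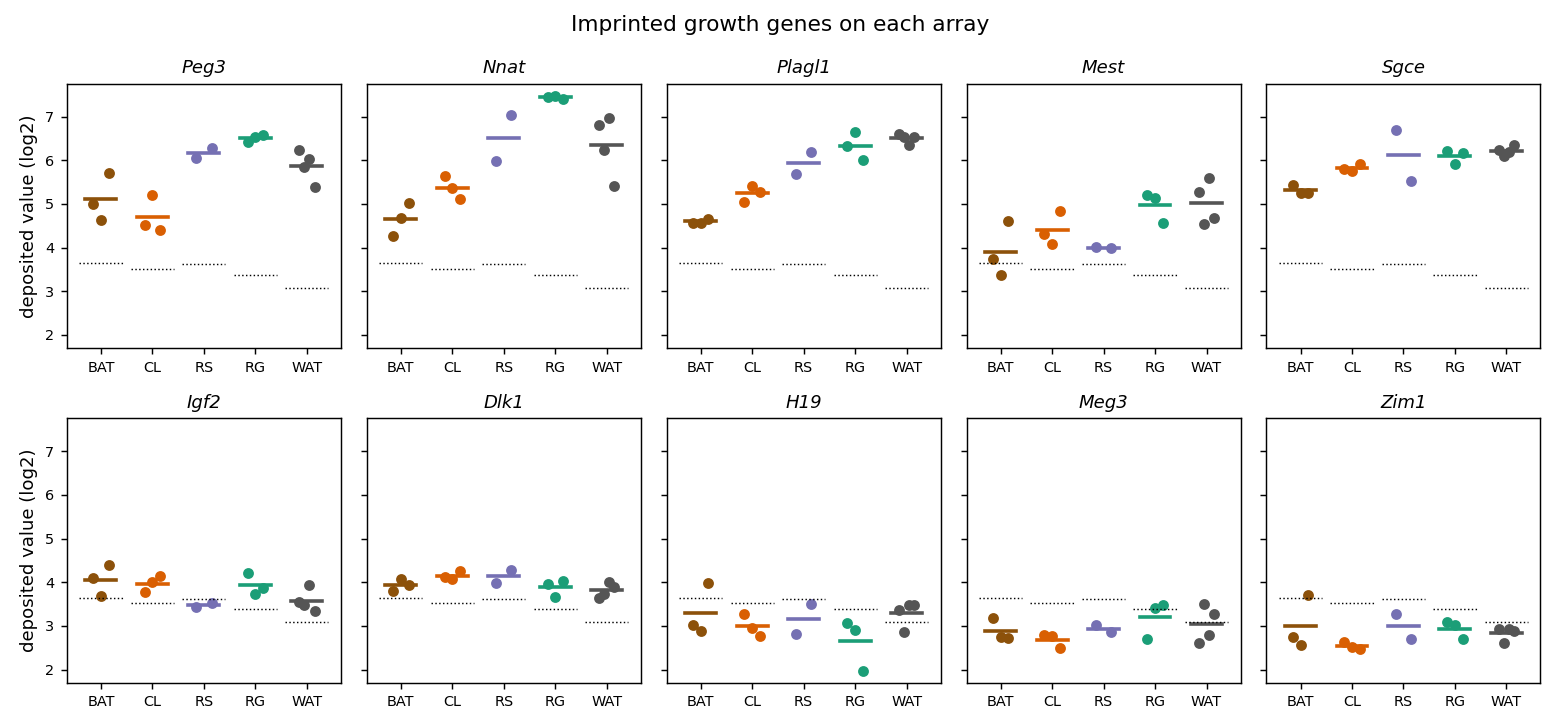
Deposited log2 value of each gene (y axis) on each array (points), with the group mean (bars) for BAT, CL, RS, RG and WAT; dotted lines give the group's mean 95th percentile of receptor probe sets. Peg3, Nnat, Plagl1, Mest and Sgce had their lowest group means in BAT or CL, while Igf2, Dlk1, H19, Meg3 and Zim1 read 4.4 or lower on every array.

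The genes fell into sets by level and by spread between groups. Peg3, Nnat, Plagl1 and Sgce lay above the receptor gauge on all 15 arrays and Mest on 14. Dlk1 lay above it on 15 arrays and Igf2 on 13, both at levels of 3.35 to 4.4. H19 lay above it on 4 arrays, Meg3 on 3 and Zim1 on 0. The highest and lowest group means were 2.79 apart for Nnat, 1.91 for Plagl1, 1.80 for Peg3, 1.12 for Mest and 0.91 for Sgce. The same distance was 0.65 for H19, 0.58 for Igf2, 0.51 for Meg3, 0.47 for Zim1 and 0.33 for Dlk1. The 5 genes with the wider distances are all paternally expressed, but so are Igf2 and Dlk1. The maternally expressed H19, Meg3 and Zim1 were below the gauge on most arrays, so no parental pattern is read from this.

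Peg3 and Plagl1 encode zinc finger proteins, PLAGL1 being a growth-restraining transcription factor. Peg3 read 5.0, 4.63 and 5.70 on the BAT arrays, 4.51, 5.21 and 4.39 on CL, 6.04 and 6.28 on RS, 6.41, 6.53 and 6.57 on RG, and 6.23, 5.84, 6.02 and 5.39 on WAT. All RG and RS arrays lay above all BAT and CL arrays, and all CL arrays lay below all WAT arrays. Group means ran in the order RG, RS, WAT, BAT and CL. In that order the arrays of RG and RS did not overlap, while those of RS and WAT, WAT and BAT, and BAT and CL did. Peg3 was 3.48-fold lower in CL than in RG, a log2 difference of -1.80 ± 0.28 (SE, n = 3 each). It was 1.17 ± 0.26 log2 units lower in CL than in WAT (n = 3 and 4). The difference of BAT from WAT was -0.76 ± 0.26 and shrank to -0.40 after quantile normalization.

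Plagl1 read 4.57, 4.57 and 4.65 on BAT, 5.05, 5.40 and 5.28 on CL, 5.68 and 6.19 on RS, 6.32, 6.64 and 6.0 on RG, and 6.59, 6.53, 6.36 and 6.54 on WAT. Its group means ran WAT, RG, RS, CL and BAT. WAT, RG and RS each overlapped with their neighbour in that order, whereas CL lay apart below RS and BAT apart below CL. Plagl1 was 3.75-fold lower in BAT than in WAT (-1.91 ± 0.17, n = 3 and 4) and 2.40-fold lower in CL than in WAT (-1.26 ± 0.17). RG lay 1.72 ± 0.18 above BAT, RS 1.34 ± 0.21 above BAT, and CL 1.08 ± 0.18 below RG. The RS difference from WAT was -0.57 ± 0.20, and without array RS 3 it was -0.32. It did not pass the threshold when any 1 of the WAT arrays was left out, nor after quantile normalization, at -0.26.

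Nnat encodes neuronatin, a small membrane protein of the endoplasmic reticulum. It read 4.26, 4.67 and 5.03 on BAT, 5.63, 5.37 and 5.12 on CL, 5.98 and 7.03 on RS, 7.46, 7.48 and 7.40 on RG, and 6.80, 6.24, 6.97 and 5.40 on WAT. Every RG array lay above every other array of the series, and every BAT array lay below every other. The order of means was RG, RS, WAT, CL and BAT. RG was apart from RS and CL apart from BAT, while RS and WAT overlapped and WAT reached into CL only through array WAT 4. Nnat was 6.93-fold higher in RG than in BAT (2.79 ± 0.35, n = 3 each) and 4.21-fold lower in CL than in RG (-2.07 ± 0.35). It was 1.09 ± 0.33 higher in RG than in WAT, and 0.78 higher without array WAT 4. The RS arrays differed from each other by more than the RS and WAT means did, with RS minus WAT at 0.15 ± 0.37.

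Mest encodes a protein of the alpha/beta hydrolase fold found in the endoplasmic reticulum. Its values were 3.73, 3.37 and 4.60 on BAT, 4.31, 4.07 and 4.83 on CL, 4.01 and 3.99 on RS, 5.20, 5.14 and 4.56 on RG, and 5.28, 4.53, 5.59 and 4.67 on WAT. Both RS arrays lay below all RG, CL and WAT arrays, unlike their place for Peg3, Nnat and Plagl1. The difference was -1.12 ± 0.31 for BAT minus WAT, -1.02 ± 0.35 for RS minus WAT and -0.05 ± 0.31 for RG minus WAT. Mest was 0.97 ± 0.37 lower in RS than in RG (n = 2 and 3). In the order WAT, RG, CL, RS and BAT, arrays of WAT and RG, of RG and CL, and of RS and BAT overlapped, and CL stood only narrowly above RS.

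Sgce encodes epsilon-sarcoglycan, a membrane protein of the dystrophin-linked complex that is also made outside muscle. Levels were 5.43, 5.25 and 5.24 on BAT, 5.81, 5.76 and 5.91 on CL, 6.70 and 5.52 on RS, 6.22, 5.91 and 6.16 on RG, and 6.24, 6.10, 6.18 and 6.34 on WAT. All BAT arrays lay below every other array, and WAT, RS, RG and CL followed each other in the order of means with overlap or contact between neighbours except that CL lay below WAT on every array. BAT minus WAT was -0.91 ± 0.21 and RG minus BAT 0.79 ± 0.23. The RS arrays lay on opposite sides of the other inguinal groups. RS minus WAT was -0.11 ± 0.24 with both RS arrays and -0.70 without RS 3.

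Igf2, the fetal growth factor, and Dlk1, the transmembrane inhibitor of adipocyte differentiation also known as Pref-1, were weak in all groups. Igf2 read 4.10, 3.68 and 4.4 on BAT, 3.77, 4.00 and 4.14 on CL, 3.44 and 3.53 on RS, 4.22, 3.74 and 3.86 on RG, and 3.54, 3.48, 3.94 and 3.35 on WAT. BAT minus WAT was 0.48 ± 0.20, with overlapping arrays, and the RS arrays were the ones not above the receptor gauge. Dlk1 read 3.81, 4.07 and 3.94 on BAT, 4.13, 4.07 and 4.25 on CL, 3.98 and 4.29 on RS, 3.97, 3.66 and 4.04 on RG, and 3.65, 3.72, 4.00 and 3.90 on WAT. CL minus WAT was 0.33 ± 0.15, and this was the widest distance between any 2 groups for Dlk1. The median receptor signal also differed, at 2.24 to 2.32 on BAT arrays against 1.46 to 1.65 on WAT arrays, and its part in these differences was not tested. After quantile normalization, Igf2 passed the threshold as higher in BAT than in WAT.

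H19 and Meg3, long noncoding RNAs, and Zim1, a zinc finger gene next to Peg3, gave signals within the range of the receptor probe sets on most arrays. H19 ranged from 2.88 to 3.99 on BAT, 2.76 to 3.27 on CL, 2.81 to 3.50 on RS, 1.97 to 3.07 on RG and 2.85 to 3.49 on WAT. Meg3 ranged from 2.72 to 3.19 on BAT, 2.49 to 2.78 on CL, 2.85 to 3.01 on RS, 2.69 to 3.48 on RG and 2.60 to 3.50 on WAT. Zim1 ranged from 2.56 to 3.70 on BAT, 2.46 to 2.62 on CL, 2.71 to 3.27 on RS, 2.71 to 3.09 on RG and 2.61 to 2.92 on WAT. For these genes no order of groups can be read from the arrays. Peg3, the paternally expressed neighbour of Zim1, was well above that range.

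**Figure D2:**
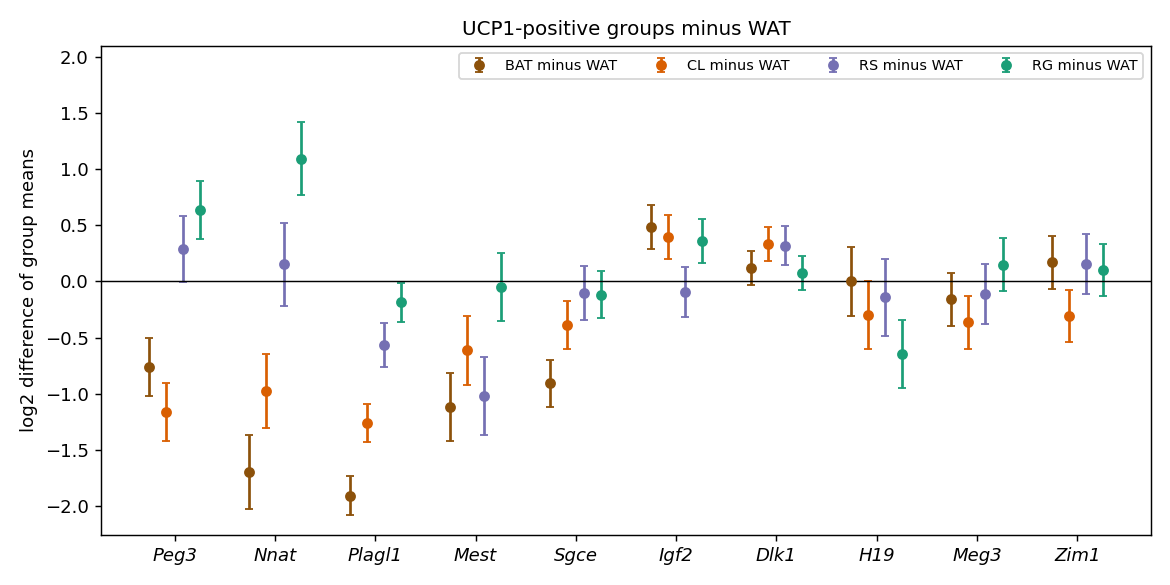
Log2 difference of group means (y axis) of each gene for BAT, CL, RS and RG minus WAT; points are fitted differences and bars 1 SE. The 4 comparisons share the WAT arrays. Plagl1 was lowest in BAT at -1.91, and Nnat was 1.09 above WAT in RG.

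Against WAT, 5 of the 10 genes passed the threshold as lower in BAT (Peg3, Mest, Nnat, Plagl1 and Sgce) and 0 as higher, where 16.4% of all probe sets were called lower and 27.6% higher. In CL 3 were lower (Peg3, Nnat and Plagl1) and 0 higher, against 9.97% and 15.2% of all probe sets. In RS 2 were lower (Mest and Plagl1) and 0 higher, against 10.3% and 11.1%. In RG 0 were lower and 1 was higher (Nnat), against 6.24% and 5.19%. The median difference of the 10 genes was -0.46 in BAT, -0.38 in CL, -0.10 in RS and 0.09 in RG. The threshold was an adjusted p under 0.05 in limma, adjusted by the Benjamini-Hochberg procedure across the whole table, and nothing is read from these counts, since the genes were chosen with the levels known. Plagl1 and Nnat in BAT, and Peg3 and Plagl1 in CL, passed under each of 14 alternative settings. Fits that left out 1 array kept Sgce in BAT in 7 of 7, Mest in BAT in 6 of 7 and Peg3 in BAT in 3 of 7. They kept Nnat in CL in 1 of 7 and Nnat in RG in 2 of 7. Mest in RS did not pass without array WAT 1 or without WAT 3, and its differences over such fits were -1.18 to -0.83. With each array's median set equal, 51.5% of all calls for BAT against WAT were higher, where 62.6% were so as deposited. For RS that share was 39.2% against 51.7%.

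The 4 comparisons with WAT share its arrays, and the WAT arrays differed from the rest in marker genes. The relative level of the stromal and preadipocyte list, a mean over its genes with each gene centred on its mean over the 15 arrays, ran from -1.0 to -0.51 in BAT, -0.71 to 0.29 in CL, -1.41 to -0.29 in RS, -0.31 to 0.25 in RG and 0.57 to 2.08 in WAT. The macrophage list ran from -0.96 to -0.62 in BAT, -0.84 to -0.042 in CL, -1.33 to -0.86 in RS, -0.95 to 0.072 in RG and 1.34 to 2.45 in WAT. The part of these cells in the lower levels of Peg3, Mest, Nnat, Plagl1 and Sgce in BAT was not tested. Within WAT, array WAT 4 had the highest stromal level and also the lowest relative level of mature adipocyte genes, at -1.75 against -0.54 to -0.057. The 2 cannot be told apart on 1 array, and their part in its values was not tested. WAT 4 had the lowest Peg3 and Nnat values and the highest Sgce value in WAT. Its Plagl1 and Mest values lay between those of other WAT arrays. RG and CL arrays overlapped in stromal and macrophage level. Between them 0 of 20 stromal and 0 of 17 macrophage markers passed the threshold, where 2.87% of all probe sets did.

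**Figure D3:**
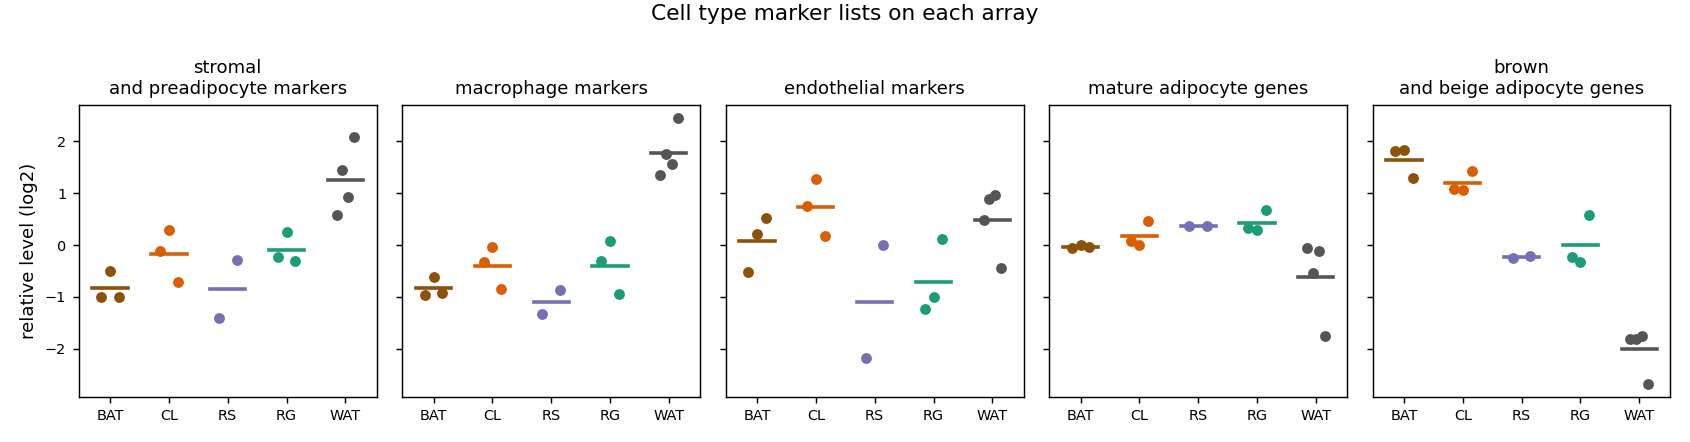
Relative log2 level (y axis) of 5 marker lists on each array (points) with group means (bars) for BAT, CL, RS, RG and WAT. WAT stood above the other groups in stromal and macrophage level, and RS 3 had the lowest endothelial level at -2.19.

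Among the UCP1-positive groups, every RG and RS array lay above every BAT and CL array for Peg3, Nnat and Plagl1. Over all probe sets, arrays did not overlap in 34.7% for RG against BAT and 30.5% for RS against BAT. The same share was 30.4% for RS against CL and 25.8% for CL against RG. In RG 5 of the 10 genes passed the threshold as higher than in BAT (Peg3, Mest, Nnat, Plagl1 and Sgce) and 0 as lower, where 5.85% of all probe sets were higher and 8.42% lower. In RS 2 were higher than in BAT (Nnat and Plagl1) and 0 lower, against 1.33% and 2.34%. In CL 0 differed from BAT in either direction, against 0.635% higher and 1.42% lower. CL was lower than RG in 3 genes (Peg3, Nnat and Plagl1) and higher in 0, against 1.22% and 1.65%. RS was higher than CL in 1 gene (Peg3) and lower in 0, against 0.476% and 0.797%. Between RS and RG 0 passed, against 0.345% higher and 0.337% lower. The median difference of the 10 genes was 0.55 for RG minus BAT and -0.46 for CL minus RG, where the median of all probe sets was -0.07 and 0.03. Nnat and Plagl1 stayed past the threshold for RG against BAT under each of 13 alternatives, which refit the same arrays. As for the comparisons with WAT, nothing is read from these counts, since the genes were chosen with the levels known. Sgce passed in 0 of 6 fits that each left out 1 array, with differences of 0.73 to 0.88. Mest passed in 2 of these 6 fits, with differences of 0.80 to 1.42. For RS against CL, Peg3 did not pass without array CL 1 or without CL 4. For RS against BAT, Nnat did not pass without array BAT 1 or without BAT 3. Fits without an RS array leave a single array in that group, so no call is given for them here. Over all fits that left out 1 array, these differences were 1.30 to 1.71 for Peg3 and 1.33 to 2.38 for Nnat. For CL against RG, leaving out array RG 3 left 0 genes past the threshold, with Peg3 still -1.79 apart. With equal array medians, 59.3% of all calls for RG against BAT were higher, where 41.0% were as deposited, and for CL against RG 43.9%, where 57.5% were as deposited.

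**Figure D4:**
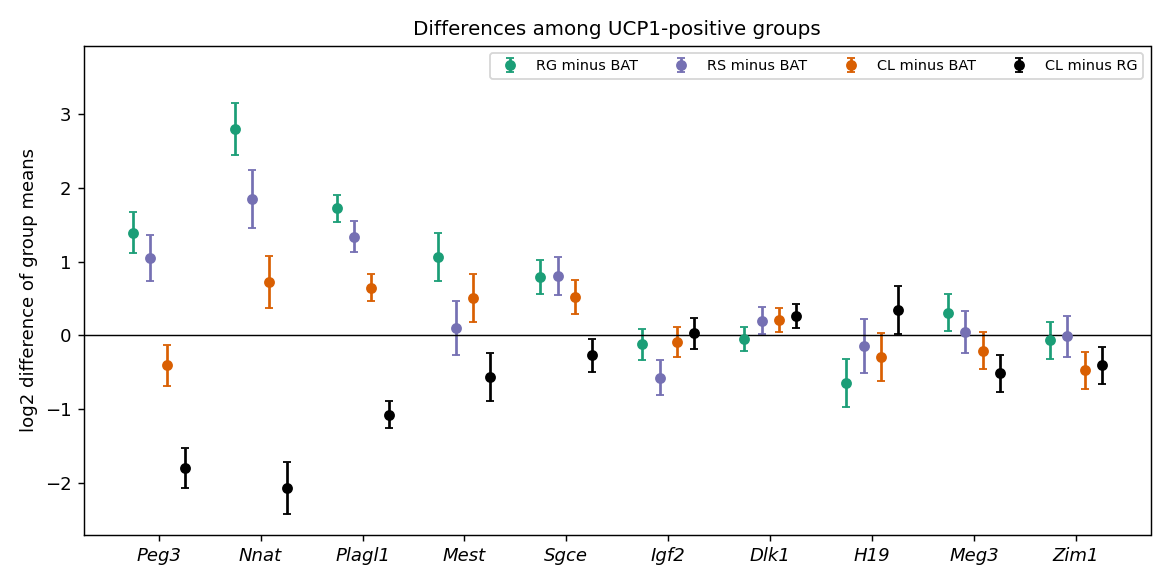
Log2 difference of group means (y axis) of each gene for RG, RS and CL minus BAT and for CL minus RG; points are fitted differences and bars 1 SE. Nnat was 2.79 higher in RG than in BAT and its CL minus RG difference was -2.07.

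The difference between RG and CL concerned cells of the same gate and depot. On the relative scale, brown and beige adipocyte genes stood at 1.06 to 1.42 in CL, -0.34 to 0.57 in RG and 1.29 to 1.84 in BAT. RS stood at -0.24 to -0.22, and WAT was lowest, at -2.67 to -1.75. CL and BAT, high in these genes, had lower Peg3, Nnat and Plagl1 means than RG and RS. WAT also had lower Peg3 and Nnat means than RG and RS, but the highest Plagl1 mean. The part of brown and beige genes in these differences was not tested. The endothelial list ran from 0.17 to 1.27 in CL and -1.24 to 0.11 in RG, and its part in the difference was not tested. Mature adipocyte genes ran from 0.002 to 0.46 in CL and 0.29 to 0.67 in RG.

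Other imprinted genes were called in both directions. Of 54 further imprinted genes, 50 had a named probe set. In BAT 10 were lower and 10 higher than in WAT (limma, adjusted p under 0.05). In CL 7 were lower and 5 higher, in RS 7 and 4, and in RG 4 and 0. Of the higher calls, 3 in BAT, 0 in CL and 1 in RS lay above the receptor gauge on every array of their group. Of the lower calls, 9 in BAT, 7 in CL, 6 in RS and 4 in RG did so on every WAT array. The share called in either direction was 40% in BAT, 24% in CL, 22% in RS and 8% in RG, against 44% in BAT, 25.2% in CL, 21.4% in RS and 11.4% in RG over all probe sets. The median difference of the 50 genes was 0.0021 in BAT, 0.04 in CL, 0.014 in RS and -0.0083 in RG. With each array's median set equal, 11 were lower and 6 higher than in WAT in BAT, 10 and 3 in CL, and 8 and 3 in RS. As deposited, 1 of the 50 was higher in RG than in BAT (Tfpi2) and 3 were lower (Asb4, Magel2 and Usp29). The Tfpi2 call was kept in 2 of 6 fits that left out 1 array. Of these 4 genes, Asb4 alone lay above the gauge on every array of the group where it read higher. Between CL and RG, 1 was lower in CL (Ppp1r9a), a call kept in 0 of 6 such fits. Between CL and BAT, RS and CL, and RS and RG, 0 were called.

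Grb10, the adaptor protein that restrains insulin and IGF receptor signalling, fell in all 4 UCP1-positive groups. It read 5.04, 5.45 and 5.58 on BAT, 5.82, 6.03 and 5.48 on CL, 5.52 and 6.0 on RS, 5.30, 5.53 and 5.73 on RG, and 6.51, 6.72, 6.77 and 6.71 on WAT. No array of another group reached the WAT range. The log2 difference from WAT was -1.32 ± 0.19 in BAT (limma, adjusted p = 0.000134), -0.90 ± 0.19 in CL (0.00403), -0.92 ± 0.21 in RS (0.0089) and -1.16 ± 0.19 in RG (0.00186). In RS the difference was -0.68 without array RS 3. After quantile normalization it was -0.62 in RS and was not called. Dcn, which is also 1 of the stromal markers and encodes the matrix proteoglycan decorin, fell in BAT (-2.29 ± 0.47, limma adjusted p = 0.0016) and in RS (-2.21 ± 0.53, adjusted p = 0.011), and was not called in CL or RG. Without RS 3 the RS difference of Dcn was -1.07 and was not called. Impact, a regulator of the GCN2 pathway, fell in BAT by 0.95 on the log2 scale (limma adjusted p = 0.00315) and was not called in CL, RS or RG. Cdkn1c, the growth-restraining inhibitor of cyclin-dependent kinases, differed from WAT by -0.06 to -0.13 in the 4 groups and was called in none of them.

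Several of the 10 genes have measured neighbours in their imprinted clusters. In the Sgce/Peg10 cluster, Peg10 shares its start region with Sgce in mouse. Peg10 was lower in CL than in WAT (-0.57 ± 0.19, limma adjusted p = 0.0384), and its difference in BAT did not pass (-0.38 ± 0.19, adjusted p = 0.117), nor did that in RG (-0.57 ± 0.19, adjusted p = 0.0637) or RS. The CL call was kept in 1 of 7 fits that each left out 1 array. Tfpi2, a protease inhibitor of the matrix, fell in BAT by 1.92 on the log2 scale (limma adjusted p = 0.000271), in CL by 1.36 (adjusted p = 0.00588) and in RS by 1.69 (adjusted p = 0.00466), and its RG difference of -0.77 did not pass. Asb4 was lower in RG than in BAT by 1.69 ± 0.30 (limma adjusted p = 0.00354), the opposite direction to Sgce. In the Mest/Copg2 cluster, Copg2, whose transcript runs against that of Mest, lay at 4.96 in BAT, 5.12 in CL, 5.15 in RS, 5.24 in RG and 5.09 in WAT on average, and Klf14 at 4.31 in BAT, 4.12 in CL, 4.19 in RS, 4.4 in RG and 4.10 in WAT. Neither was called in any comparison with WAT. In the Dlk1/Meg3 cluster, Rian was 0.93 ± 0.26 lower in RS than in WAT (limma adjusted p = 0.021) but lay above the receptor gauge on 1 array and was not called without either RS array, at -0.76 to -1.13 over the fits that left out 1 array. Mirg, another noncoding RNA of that cluster, lay above the gauge on 11 of 15 arrays. Usp29, which shares its promoter region with Peg3, lay above the gauge on 0 arrays.

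Igf2 acts through the IGF1 receptor and is cleared by the imprinted receptor Igf2r, and binding proteins hold IGFs outside the cell. Of 20 genes of this axis 18 were measured. In BAT 9 were lower and 2 higher than in WAT, in CL 5 and 0, in RS 4 and 1, and in RG 4 and 0 (limma, adjusted p under 0.05). The share called in either direction was 61.1% in BAT, 27.8% in CL, 27.8% in RS and 22.2% in RG, against 44% in BAT, 25.2% in CL, 21.4% in RS and 11.4% in RG over all probe sets. The median difference of the list was -0.52 in BAT, -0.33 in CL, 0.06 in RS and -0.18 in RG. Igfbp6, whose product prefers IGF2, showed the widest change, with -3.03 ± 0.40 in BAT (limma adjusted p = 9.4e-05), -2.19 ± 0.40 in CL (0.00205), -3.32 ± 0.46 in RS (0.00051) and -2.14 ± 0.40 in RG (0.00492). Its levels in WAT moved with the stromal level described above, whose part was not tested.

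Igf1, the postnatal ligand of the same receptor, read 6.29, 6.43 and 6.36 on BAT, 7.11, 6.81 and 7.20 on CL, 7.86 and 7.43 on RS, 7.92, 7.88 and 7.58 on RG, and 7.57, 7.21, 7.57 and 7.30 on WAT. BAT lay below all other arrays. Igf1 was higher in RG than in BAT by 1.43 ± 0.18 (limma adjusted p = 0.000374) and in RS than in BAT by 1.29 ± 0.20 (adjusted p = 0.00355). It was lower in CL than in RG by 0.75 ± 0.18 (limma adjusted p = 0.0358), a call kept in 1 of 6 fits that left out 1 array. Igf1r fell against WAT in BAT by 0.94 on the log2 scale (limma adjusted p = 0.00526), in CL by 0.77 (adjusted p = 0.0269), in RS by 1.47 (adjusted p = 0.00242) and in RG by 1.04 (adjusted p = 0.0121). The CL call was kept in 3 of 7 fits that left out 1 array, and the RG call did not stand without array RG 2, where the difference was -0.86. Igf2r did not pass in any comparison with WAT, with differences of -0.06 in BAT, -0.16 in CL, -0.43 in RS and -0.26 in RG.

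A microRNA gene within Igf2, Mir483, was looked up after the Igf2 levels had been seen. Its mature products were read from RefSeq (GRCm38.p6) and are shown because this probe set differed between groups where that of Igf2 differed little. Capitals mark the seed, bases 2 to 8.
mmu-miR-483-5p: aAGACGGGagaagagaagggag
mmu-miR-483-3p: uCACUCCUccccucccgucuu
The Mir483 probe set read 8.06, 7.33 and 7.57 on BAT, 7.78, 7.15 and 7.50 on CL, 7.89 and 8.03 on RS, 7.21, 6.98 and 6.58 on RG, and 6.60, 6.32, 5.81 and 6.47 on WAT. All BAT, CL and RS arrays lay above all WAT arrays, and RG 4 lay within the WAT range. The difference from WAT was 1.35 ± 0.23 in BAT (limma adjusted p = 0.000481), 1.18 ± 0.23 in CL (0.00297), 1.66 ± 0.26 in RS (0.00111) and 0.62 ± 0.23 in RG (0.0915, not called). The first 3 calls stood in every alternative tried. The probe set does not separate the hairpin from longer transcripts across it, nor the 2 mature products. Mir335, the microRNA gene within Mest, lay within the receptor range at 1.56 to 3.16. It was called higher in CL than in WAT (0.81 ± 0.25, limma adjusted p = 0.0273), a call kept in 3 of 7 fits that left out 1 array, and was not called in BAT, RS or RG. The part of the higher receptor signal on CL arrays was not tested.

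**Figure D5:**
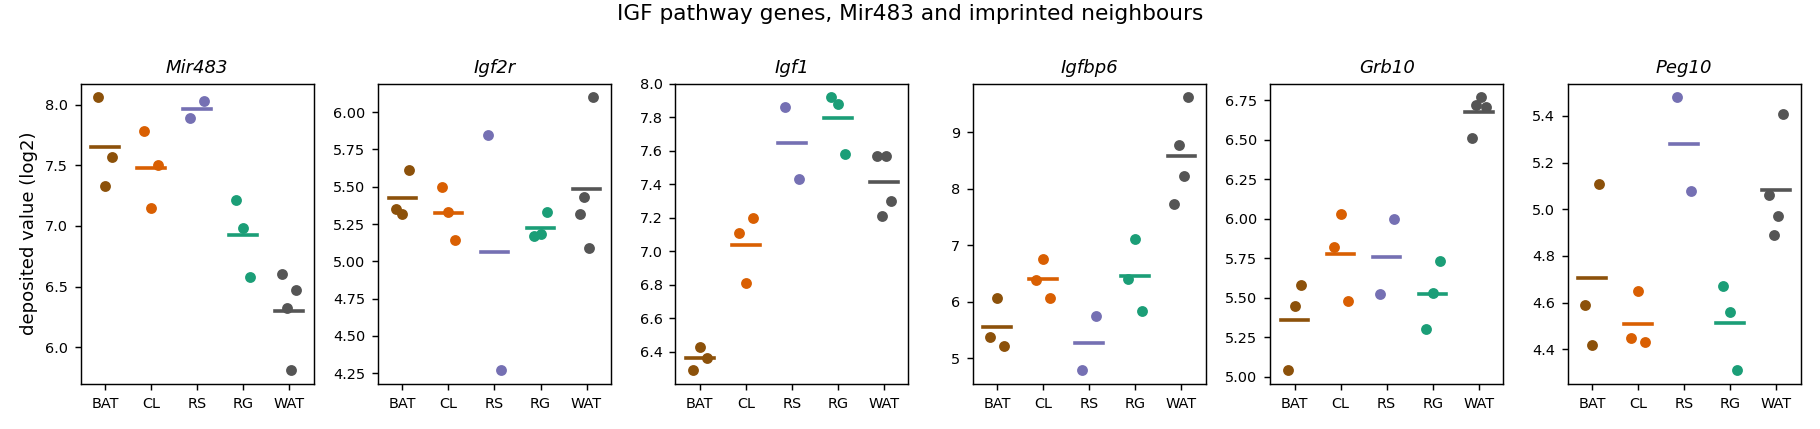
Deposited log2 values (y axes, each with its own range) of Mir483, Igf2r, Igf1, Igfbp6, Grb10 and Peg10 on each array (points) with group means (bars). Grb10 and Igfbp6 were highest in WAT, Mir483 was lowest there, and Igf1 was lowest in BAT.

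Lists of partners of Sgce and Dlk1 and of genes that act on imprints or DNA methylation were counted in the same way. For the sarcoglycan and Notch lists the shares called were 27.3% and 50% in BAT, 18.2% and 22.2% in CL, 9.09% and 27.8% in RS, and 18.2% and 11.1% in RG. Of 11 sarcoglycan and dystroglycan complex genes measured, 2 were higher and 1 was lower in BAT than in WAT, 1 each way in CL and in RG, and 0 higher and 1 lower in RS. Sntb2, beta-2-syntrophin, was lower in BAT (-1.23 ± 0.19, limma adjusted p = 0.000296), in CL (-0.63 ± 0.19, adjusted p = 0.029), in RS (-0.84 ± 0.22, adjusted p = 0.0162) and in RG (-0.91 ± 0.19, adjusted p = 0.0098). Fits that left out 1 array kept the CL call in 2 of 7 and the RS call in 5 of 6. Of 18 Notch receptors, ligands and partners of DLK1, 4 were higher and 5 lower in BAT, 1 and 3 in CL, 1 and 4 in RS, and 0 and 2 in RG. Fn1, fibronectin, was lower in all 4 groups, at -3.43 ± 0.64 in BAT (limma adjusted p = 0.000908), -2.17 ± 0.64 in CL (0.0241), -3.55 ± 0.73 in RS (0.00499) and -2.46 ± 0.64 in RG (0.0239), and the CL and RG calls were each kept in 4 of 7 fits that left out 1 array. The list of 16 genes that act on imprints or DNA methylation held the methylcytosine oxidases Tet1, Tet2 and Tet3. Of the 16, 6 were lower and 0 higher in BAT, 3 and 1 in CL, 7 and 0 in RS, and 3 and 0 in RG. The share called in either direction was 37.5% in BAT, 25% in CL, 43.8% in RS and 18.8% in RG, against 44% in BAT, 25.2% in CL, 21.4% in RS and 11.4% in RG over all probe sets. The higher gene in CL was Tet1, whose CL mean of 3.23 lay below the receptor gauge of every CL array (3.38 to 3.60). The methylcytosine oxidase Tet3 was at -1.72 ± 0.28 in BAT (limma adjusted p = 0.000386), -0.47 ± 0.28 in CL (0.236, not called), -1.20 ± 0.32 in RS (0.0181, not called without RS 4) and -1.12 ± 0.28 in RG (0.0208, kept in 4 of 7 fits that left out 1 array). Smchd1, a chromatin silencer, was at -0.97 ± 0.17 in BAT (limma adjusted p = 0.000494), -0.92 ± 0.17 in CL (0.00186), -1.03 ± 0.19 in RS (0.00264) and -0.55 ± 0.17 in RG (0.0431, kept in 2 of 7 such fits).

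The profiles most like those of Nnat, Plagl1 and Peg3 over the 15 arrays were sought by the root mean square distance between profiles centred on their own means. For Nnat these were Gbp11 at 0.48, Raver2 at 0.50 and Zbtb16 at 0.51 log2 units. Zbtb16, which encodes the zinc finger factor PLZF, averaged 6.45 in BAT, 6.73 in CL, 7.69 in RS, 8.32 in RG and 7.95 in WAT. For Plagl1 they were Cebpd at 0.20, Cpne2 at 0.22 and Anxa1 at 0.25. Cebpd, a transcription factor of early adipocyte differentiation, averaged 4.75 in BAT, 5.40 in CL, 5.70 in RS, 6.32 in RG and 6.62 in WAT. For Peg3 they were Frat2 at 0.27, Btg2 at 0.35 and Cfap36 at 0.38. The distance between Peg3 and Plagl1 was 0.56, between Peg3 and Nnat 0.58 and between Nnat and Plagl1 0.62. The points of these profiles share the same arrays, and the search for Plagl1 and Peg3 was added after their levels had been seen.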

How the data were processed

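RNA of sorted mouse fat cells had been labelled from 2 ng with a whole-transcript kit for low input, per the labels' protocols, and hybridised to 15 arrays. The deposited values are log2 intensities per probe set; RMA, affy 1.36.1 and Affymetrix Expression Console are named per the submitters' processing notes, without their roles, and the genome build is not given in the sources used here. Values were used as deposited, with no filter on low values. Groups came from the sample titles. Probe sets were named through the platform annotation, which gave 1 symbol for 23185 of 25206 and none for 2021. For a symbol with several probe sets the one with the highest mean was taken. Differences were fitted with limma 3.58.1 in R 4.3.3 (lmFit, contrasts.fit, eBayes, two-sided, Benjamini-Hochberg over all 25206 probe sets, threshold 0.05) on all 15 arrays, leaving 10 residual degrees of freedom, and the script was tested on simulated data. The number of arrays limits the precision.

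The 10 genes, the other lists and the marker lists were chosen with earlier results of these data known. Named beside the 10 were, per list and comparison, up to 4 called genes in each direction with the largest change and arrays that did not overlap, and cluster neighbours. Mir335 and Mir483, Impact, Mirg, Igf1r, Igf2r and Cdkn1c were named after their values had been seen. For likeness, genes whose group means spanned over 2 log2 units were to be searched (Nnat), and a range of over 1.5 was added later (Plagl1 and Peg3). The title numbers were not used as pairs. Over 24 pairs with the same number, correlations of deviations from group means were -0.88 to -0.05. Of 15 arrays, 0 correlated best with an array of their own number. With so few arrays a group, these values cannot exclude a batch shared by a number. Arrays of a group correlated at 0.945 to 0.988, and 0 pairs were identical. Alternatives were quantile normalization, equal array medians, a filter, a variance trend, a replicate block, fits on the compared groups alone, and leaving out arrays.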

Additional observations from a re-analysis of the deposited data

Results flagged for a closer look

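Peg3 differed by 1.80 log2 units between the RG and CL means, with all RG arrays above and all CL arrays below the WAT arrays. Nnat differed by 2.79 between the RG and BAT means, with all RG arrays above and all BAT arrays below the WAT arrays. That the responses ran opposite ways relative to WAT was not tested, since the genes were chosen with these levels known. Zim1 on array WAT 2, at 2.61, lay far from the other WAT arrays at 2.89 to 2.92, and chance alone gives a gap of that kind in about 1 of 20 groups. The 10 genes were looked at in WAT alone, the group with 4 arrays. All these Zim1 values lay below the receptor gauge.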

How the results depend on the processing

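The sign of the 22 member differences past the threshold was the same in all 292 alternative values, and 47 of 1250 alternative values over all 100 member differences moved by more than 1 SD, of which 36 came from settings that left out an RS array. Counts of the 10 genes past the threshold were as follows where they differed from those in the report. Quantile normalization gave 3 for BAT against WAT (Nnat and Plagl1 lower, Igf2 higher), 2 for CL against WAT (Peg3 and Plagl1), 0 for RS against WAT, 0 for RG against WAT and 3 for RG against BAT. The replicate block was run although the numbers are not known to be pairs. It gave 4 for BAT and 2 for CL against WAT, and 2 for RG against BAT. It gave 0 for RS and RG against WAT, RS against BAT, RS against CL and CL against RG. Fits on the compared groups alone gave 2 for CL against WAT, where Nnat was lost, 0 for RS and RG against WAT, RS against BAT and RS against CL, and the variance trend gave 1 for RS against WAT. Without both WAT 4 and RS 3, RS and RG against WAT gave 0 each. Leaving out each array in turn gave 4 to 5 in BAT, 2 to 3 in CL, 0 to 1 in RS and 0 to 1 in RG against WAT, 1 to 3 for RS and 3 to 4 for RG against BAT, 0 to 1 for RS against CL, 0 to 3 for CL against RG, and 0 for CL against BAT and RS against RG. For the other imprinted genes called, the replicate block gave 11 in BAT, 5 in CL and 6 in RS against WAT, 0 for RS and 1 for RG against BAT and 0 for CL against RG. Quantile normalization gave 6 for CL against WAT, 2 for RS against BAT, 1 for RS against CL and 0 for CL against RG. Leaving out probe sets with a mean of 4 or less, which kept 5 of the 10 genes, gave 5 in BAT, 3 in CL and 2 in RS against WAT, 0 for RS and RG against BAT and 1 for RS against CL. Fits on the compared groups alone gave 8 for RG against WAT, 0 for RS against BAT and 2 for CL against RG, and leaving out WAT 4 and RS 3 gave 6 for RS against WAT. Leaving out 1 array gave 12 to 19 in BAT, 4 to 11 in CL, 5 to 10 in RS and 3 to 5 in RG against WAT, 0 to 1 for RS and 2 to 5 for RG against BAT, 0 to 1 for RS against CL, and 0 for CL against BAT, RS against RG and CL against RG. Over all probe sets, calls against WAT numbered 11096 in BAT, 6350 in CL, 5387 in RS and 2882 in RG, and 6220 in BAT, 3152 in CL, 2455 in RS and 2027 in RG after quantile normalization. With the replicate block they numbered 7286 in BAT, 2461 in CL, 2052 in RS and 1071 in RG. The filter and the fits on fewer arrays lower counts by construction; other causes were not tested. With 2 to 4 arrays a group, weak signals of H19, Meg3 and Zim1 limit what can be seen.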
